A study of Mus musculus with 30 samples.

Results

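The hearts of 2 mouse models of Huntington's disease (HD) were compared at end-stage disease, to find out which transcripts responded in a like manner to both forms of mutant huntingtin and which did not. The data were the 15 whole-heart RNA-seq libraries, of 30 in the series, whose headings carried the ages 15 weeks or 22 months. At 15 weeks there were 4 wild type (WT) and 4 R6/2 hearts, and at 22 months 3 WT and 4 HdhQ150 hearts. All mice were of CBA and C57BL/6 stock, but the crosses differed. R6/2 males were backcrossed to F1 females of these strains, whereas HdhQ150 mice were F1 offspring of CBA/Ca and C57BL/6J congenic lines. R6/2 mice were hemizygous for a transgene that encodes an N-terminal exon 1 fragment of mutant human HTT, in addition to their own mouse Htt gene. HdhQ150 mice were homozygous for an expanded CAG repeat knocked in to mouse Htt, and through mis-splicing make both a mutant exon 1 protein and a mutant full length protein. The model, the age, the cross and the nature of the mutation therefore changed together and cannot be told apart. Each mutant group was set against WT hearts of its own age, so that the 2 genotype effects shared no control heart. The effect in one model was then subtracted from that in the other (HdhQ150 minus R6/2, the interaction), and the genes that moved the same way in both were counted. Hearts are named below by the mouse number in the headings, and the fits were repeated in 12 libraries, without WT mice 1 and 2 and HdhQ150 mouse 31. That set keeps only 2 WT hearts beside 4 R6/2 hearts at 15 weeks, and 3 WT and 3 HdhQ150 hearts at 22 months. Each number is taken to be 1 animal.

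Huntingtin is expressed in nearly every tissue, the heart included, and the exon 1 fragment with a long glutamine tract is its aggregation-prone form. Cardiomyocytes run a circadian clock in which ARNTL (BMAL1) and its partners CLOCK and NPAS2 bind E-box sequences and drive the Per, Cry, Nr1d and PAR bZIP genes (Dbp, Tef, Hlf), whose products feed back on Arntl. Among the other programmes followed here, heat shock proteins fold and refold client proteins, the interferon response brings about antiviral and antigen presenting genes, and oxidative phosphorylation supplies most of the ATP of the beating heart.

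The libraries held between 38217660 and 62127770 estimated counts, of which 24.91 to 36.39% lay on mitochondrially encoded genes. Levels are given as CPM, counts relative to the TMM-scaled library size, a unit that is not corrected for gene length, so levels are compared between hearts and not between genes. Transcripts of thymocytes stood out in WT mice 1 and 2, in which the 12 markers summed to 1995 and 1657 CPM, and in HdhQ150 mouse 31, with 463.1 CPM, whereas the other 12 hearts lay between 7.71 and 24.95 CPM. The 14 airway and alveolar markers summed to 965.5, 2.40, 406.6 and 5509 CPM in R6/2 mice 5 to 8, to 5.01, 4.17, 853.3 and 524.3 CPM in HdhQ150 mice 29 to 32, and to at most 42.96 CPM in WT hearts. Mouse 31 also had the highest sum of the 8 B cell and plasma cell markers, 783.4 CPM against 12.36 to 210.8 CPM elsewhere. Y-linked transcripts were present in all 8 hearts at 15 weeks and in WT mice 26 and 27, and were near 0 in WT mouse 28 and in all 4 HdhQ150 hearts, so the 22-month comparison was in part one between sexes. In the fits below with a term for these transcripts, the HdhQ150 effect therefore rests almost wholly on WT mouse 28 as its control. Fewer calls in those fits cannot tell a part of sex from the loss of the other WT hearts. The sex letter in the heading disagreed with these transcripts for 8 of the 15 libraries. In whole hearts, fewer cells of a type and less RNA per cell cannot be told apart. Cardiomyocyte markers such as Myh6, Tnnt2 and Ryr2 were abundant throughout, their 8-gene sum lying between 35580 and 69410 CPM.

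The mutated gene was examined first. Endogenous Htt was measured at 25.8, 28.0, 24.8 and 20.8 CPM in WT and 20.4, 19.7, 18.9 and 19.3 CPM in R6/2 hearts at 15 weeks. At 22 months it was at 18.6, 19.2 and 21.8 CPM in WT and 11.5, 18.7, 16.6 and 12.5 CPM in HdhQ150 hearts. The log2 difference was -0.34 ± 0.14 (SE) in R6/2 (adjusted p = 0.118) and -0.42 ± 0.15 in HdhQ150 hearts (adjusted p = 0.175), so neither passed the threshold of an adjusted p under 0.1 with at least a 1.3-fold change, and the 2 effects differed by -0.08 (adjusted p = 0.834). The R6/2 transgene is human sequence, hence the mouse Htt value does not check the genotype of these mice, and a repeat expansion does not remove the HdhQ150 transcript.

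Because both a clock and an interferon programme stood among the lists compared, the promoters of 6 of the genes followed below are shown. They are the 250 bases before a gene start in RefSeq's annotation of GRCm38.p6, read 5′ to 3′ on the strand of the gene. Capitals mark the E-box CACGTG, the D-box TTATGNAA (Per1 only) and the interferon-response motif GAAANNGAA, each searched on both strands. Per1, Tef, Plagl1 and Cbs are shown for their E-box, and Stat2 and Oas3 for the interferon-response motif, which in Oas3 occurs as overlapping copies.
Per1 (chr11:69098699-69098948, + strand): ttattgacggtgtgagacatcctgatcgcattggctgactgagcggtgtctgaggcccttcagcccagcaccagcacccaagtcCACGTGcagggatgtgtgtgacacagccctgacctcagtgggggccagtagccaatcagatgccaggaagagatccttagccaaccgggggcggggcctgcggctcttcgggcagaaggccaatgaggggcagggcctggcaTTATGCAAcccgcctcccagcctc
Tef (chr15:81802423-81802672, + strand): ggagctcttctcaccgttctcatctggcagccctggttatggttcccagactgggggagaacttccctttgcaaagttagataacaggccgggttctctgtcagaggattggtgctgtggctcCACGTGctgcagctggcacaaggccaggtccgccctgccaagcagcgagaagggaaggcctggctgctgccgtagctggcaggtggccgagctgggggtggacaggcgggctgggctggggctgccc
Plagl1 (chr10:13090582-13090831, + strand): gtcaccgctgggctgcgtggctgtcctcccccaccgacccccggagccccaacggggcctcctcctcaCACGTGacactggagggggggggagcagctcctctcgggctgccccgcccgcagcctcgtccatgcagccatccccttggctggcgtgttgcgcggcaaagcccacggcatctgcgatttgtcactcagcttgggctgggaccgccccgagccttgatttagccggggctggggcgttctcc
Cbs (chr17:31637206-31637455, - strand): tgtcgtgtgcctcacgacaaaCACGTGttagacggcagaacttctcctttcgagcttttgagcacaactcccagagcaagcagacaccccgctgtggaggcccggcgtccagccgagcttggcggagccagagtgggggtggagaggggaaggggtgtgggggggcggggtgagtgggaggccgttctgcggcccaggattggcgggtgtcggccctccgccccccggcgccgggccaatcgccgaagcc
Stat2 (chr10:128270248-128270497, + strand): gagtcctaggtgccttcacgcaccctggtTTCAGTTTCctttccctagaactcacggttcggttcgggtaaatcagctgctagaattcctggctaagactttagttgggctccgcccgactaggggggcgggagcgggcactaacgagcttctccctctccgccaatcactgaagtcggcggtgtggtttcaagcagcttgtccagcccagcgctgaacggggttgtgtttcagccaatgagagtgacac
Oas3 (chr5:120777660-120777909, - strand): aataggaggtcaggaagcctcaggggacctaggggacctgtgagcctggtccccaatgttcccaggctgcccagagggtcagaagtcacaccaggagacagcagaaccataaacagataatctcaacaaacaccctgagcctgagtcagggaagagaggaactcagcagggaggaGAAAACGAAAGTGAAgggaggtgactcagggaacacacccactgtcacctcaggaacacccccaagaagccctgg
Over windows of 300 bases (250 before to 50 after the start), the E-box was in 9.32% of 15115 promoters of 11874 tested genes, the D-box in 2.1%, the FOXO motif GTAAACA in 2.67% and the interferon-response motif in 7.3%. An E-box was in 5 of 13 promoters (38.5%) of clock genes that peak with Dbp and in 1 of 8 (12.5%) of those that peak with Arntl. The interferon-response motif was in 20 of 39 promoters (51.3%) of the interferon list. Of 9 promoters of the 8 genes described below as higher in both models, 2 (22.2%, Cbs and Plagl1) held an E-box and 1 (11.1%, Ifitm1) a FOXO motif. Among 7 promoters found for 5 of the 8 genes lower in both, 1 (14.3%, Tmem150c) held an interferon-response motif. These matches describe letters in the window, not bound sites.

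Of 16563 genes tested, 1483 (8.95%) were higher and 1431 (8.64%) lower in R6/2 than in WT hearts, while 12 (0.0725%) were higher and 45 (0.272%) lower in HdhQ150 hearts. Of the 57 genes called in HdhQ150 hearts, 52 had the same sign in R6/2 hearts, and 4 were Y-linked. On their own, 23 genes were called in each of the models in the same direction (7 higher, 16 lower) and 1 gene, the glutathione transferase Gsta4, in opposite directions. A stricter joint call, which adjusts the larger of each gene's 2 p-values, passed 0 genes (0.0%), with a smallest adjusted value of 0.4. With that joint call, edgeR passed 0 genes also in 12 libraries (smallest value 0.23), whereas DESeq2 passed 27 genes in 15 libraries (9 higher, 18 lower, 0 opposite) and 67 in 12 libraries (21 higher, 46 lower, 0 opposite). Without mice 1, 2 and 31 the count called in HdhQ150 hearts was 0, with 2715 genes at an unadjusted p under 0.05 and 715 called by DESeq2. The HdhQ150 calls lay close to the threshold, at adjusted p between 0.0961 and 0.0977 for those described below. Their number went to 0 without any one of WT mice 2, 4, 26 and 27, R6/2 mice 6 and 7 or HdhQ150 mice 30, 31 and 32, to between 3 and 9 without WT mouse 1 or 3, R6/2 mouse 5 or 8 or HdhQ150 mouse 29, and to 490 without WT mouse 28, the heart of its group that lacked Y-linked transcripts. The R6/2 calls were fewest, at 1488, 1576 and 1666, without WT mouse 2, WT mouse 1 or R6/2 mouse 8. The HdhQ150 count was also 0 with a term for the Y-linked or the airway transcripts, and 1356 by DESeq2. With the mark that the headings give each library (1 to 8) as a block, chosen after seeing the data, 4 residual degrees of freedom remained, and 8 genes were called in R6/2 and 0 in HdhQ150 hearts. The unadjusted p was then under 0.05 for 1429 and 1230 genes.

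At an unadjusted p under 0.05 and a 1.3-fold change in both models, 285 genes (1.72%) were higher in both and 157 (0.948%) lower in both, against 132 (0.797%) that went in opposite directions. These opposite genes were mostly higher in HdhQ150 and lower in R6/2 hearts (101 genes), and 31 had the reverse pattern. In 12 libraries the corresponding numbers were 240 (1.46%) higher, 189 (1.15%) lower and 18 (0.109%) opposite. The same-way sets of the 15 and 12 libraries shared 230 genes, which made up 52.04% of the first and 53.61% of the second, and these shared genes comprised 122 higher and 108 lower. Leaving out the 3 libraries thus lowered the number of opposite genes from 132 to 18, and the same-way genes numbered 429 against 442. With the Y-linked term, which leaves WT mouse 28 almost alone as the 22-month control, the same-way genes fell to 94, and to 128 in 12 libraries. With the marks as a block they numbered 136 and the opposite genes 33. Single hearts moved the opposite count as well, from 22 without WT mouse 26, 29 without HdhQ150 mouse 31 and 33 without WT mouse 27, through 65 to 85 without any one of WT mice 1 and 2 and R6/2 mice 5, 6 and 7, to 210, 234 and 243 without WT mouse 3, HdhQ150 mouse 29 or WT mouse 4. Without WT mouse 26 or 27, the hearts of their age with Y-linked transcripts, the same-way genes were 241 and 287. Across all genes tested the Spearman correlation of the 2 effects was 0.04 in 15 libraries and 0.375 in 12 libraries (Pearson 0.02 and 0.397). Genes are not independent replicates, and the points share the libraries and their depth. Among genes called in R6/2 hearts, 58.58% of 2914 had the same sign in HdhQ150 hearts, and 81.12% of 1668 did so in 12 libraries. Over all genes, the share with the same sign was 51.32% and 63.16%, respectively.

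**Figure D1:**
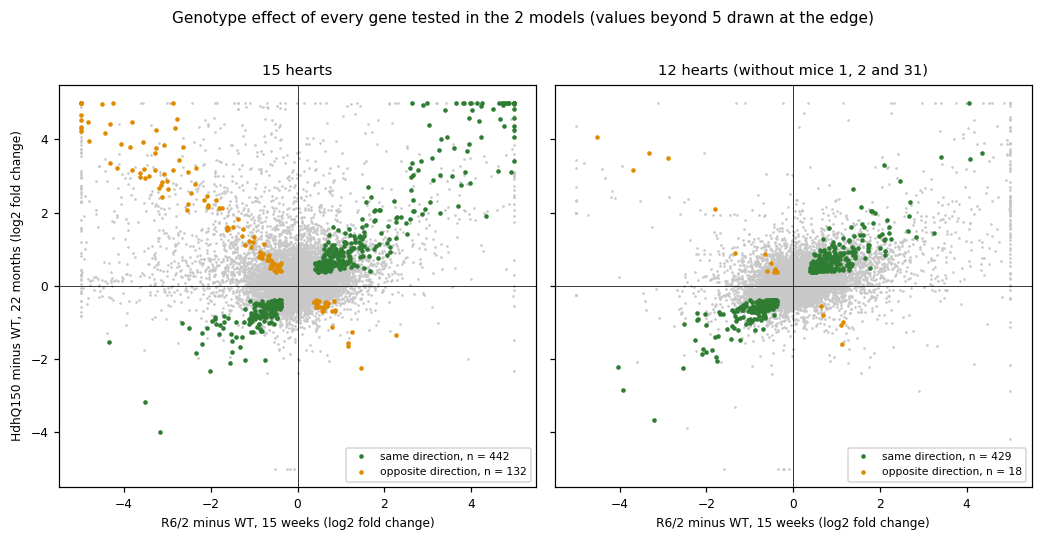
Genotype effect of every gene tested, as log2 fold change, in R6/2 hearts at 15 weeks (horizontal axis) and HdhQ150 hearts at 22 months (vertical axis), in 15 hearts (left) and in 12 hearts without mice 1, 2 and 31 (right). Green points are genes at an unadjusted p under 0.05 with the same direction in both models (442 and 429), orange points those with opposite directions (132 and 18), and grey points the rest. The orange arm at upper left is almost gone on the right.

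The mean of the 2 effects was called for 1120 genes (6.76%) as higher and 620 (3.74%) as lower, of which 1651 had both effects of the same sign but only 784 reached an unadjusted p under 0.05 in HdhQ150 hearts. The total of 1740 went to 22 with the Y-linked term, 688 with the airway term, 111 with the marks as a block and 744 without WT mouse 26. A called mean is thus not a call in each model, and it is not used as one below.

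Isyna1, Ifitm1, Zc3h6, Plagl1, Bcl9, Igfbp3, Cbs and Hap1 were the 8 genes higher in both models with the smallest larger p. They and the 8 lower genes further down were chosen on these same hearts. A lack of overlap between groups in these genes is thus largely set by the choice. Isyna1, which encodes the enzyme that makes inositol phosphate from glucose 6-phosphate, was at 31.2, 34.0, 28.8 and 29.1 CPM in WT and 46.6, 51.2, 61.4 and 52.9 CPM in R6/2 hearts. At 22 months the levels were 23.9, 23.5 and 25.7 CPM in WT and 35.0, 36.1, 41.3 and 36.3 CPM in HdhQ150 hearts. Every mutant heart lay above every WT heart of its age, and the log2 fold change was 0.79 ± 0.09 in R6/2 (adjusted p = 0.00154) and 0.61 ± 0.10 in HdhQ150 hearts (adjusted p = 0.0961). Ifitm1, an interferon-induced transmembrane protein that restricts virus entry, had the largest change of the 8. It was measured at 1.06, 1.08, 1.40 and 1.64 CPM in WT and 9.70, 7.05, 8.75 and 12.5 CPM in R6/2 hearts. The older hearts were at 2.42, 2.89 and 2.61 CPM in WT and 4.69, 8.25, 18.6 and 9.52 CPM in HdhQ150 hearts. The groups did not overlap at either age. The lowest mutant value of each age was in a heart with low airway transcripts, R6/2 mouse 6 and HdhQ150 mouse 29. The highest was in a heart where those transcripts were high, R6/2 mouse 8 and HdhQ150 mouse 31. The part of airway cells in these levels was not tested. The log2 fold changes were 2.88 ± 0.35 and 1.96 ± 0.37 (adjusted p = 0.00199 and 0.0961). With 12 libraries they were 2.65 (adjusted p = 0.00284) and 1.51 (adjusted p = 0.138).

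Zc3h6, a CCCH-type zinc finger gene, stood at 1.94 to 2.50 CPM in WT and 5.11 to 6.31 CPM in R6/2 hearts. Levels at 22 months were 2.39, 3.14 and 3.03 CPM in WT and 5.29, 9.99, 6.15 and 4.79 CPM in HdhQ150 hearts. Its effects were close to each other, 1.33 ± 0.21 and 1.20 ± 0.23 on the log2 scale (adjusted p = 0.00471 and 0.0961). Plagl1, an imprinted zinc finger transcription factor, showed log2 fold changes of 0.86 ± 0.15 and 0.85 ± 0.17 (adjusted p = 0.00758 and 0.0961), from 6.33 ± 0.815 (SD, n = 4) to 11.4 ± 1.08 CPM (n = 4) and from 5.16 ± 0.880 (n = 3) to 9.29 ± 1.62 CPM (n = 4). Bcl9, a coactivator of beta-catenin in Wnt signalling, rose by 0.66 ± 0.12 and 0.63 ± 0.13 (adjusted p = 0.00833 and 0.0977). All 5 of these genes were thus called in each model by edgeR.

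The 3 remaining genes were called in R6/2 hearts but not in HdhQ150 hearts by edgeR, whereas DESeq2 called all 16 genes of both rankings in each model. Hap1 encodes huntingtin-associated protein 1, which binds huntingtin directly. Its levels were 2.93, 3.17, 2.38 and 2.76 CPM in WT, 4.48, 5.36, 6.15 and 7.42 CPM in R6/2, 2.54, 2.08 and 2.58 CPM in WT and 3.36, 3.64, 4.95 and 4.91 CPM in HdhQ150 hearts. Neither pair of groups overlapped, with log2 fold changes of 1.06 ± 0.19 (adjusted p = 0.0072) and 0.81 ± 0.20 (adjusted p = 0.138). Igfbp3, which binds insulin-like growth factors in the circulation, had log2 fold changes of 1.01 ± 0.17 (adjusted p = 0.00556) and 0.84 ± 0.18 (adjusted p = 0.103). Cbs, the first enzyme of the transsulfuration route from homocysteine to cysteine, had 1.45 ± 0.30 (adjusted p = 0.0135) and 1.36 ± 0.33 (adjusted p = 0.128) from WT levels of 0.526 ± 0.120 (SD, n = 4) and 0.744 ± 0.248 CPM (n = 3).

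**Figure D2:**
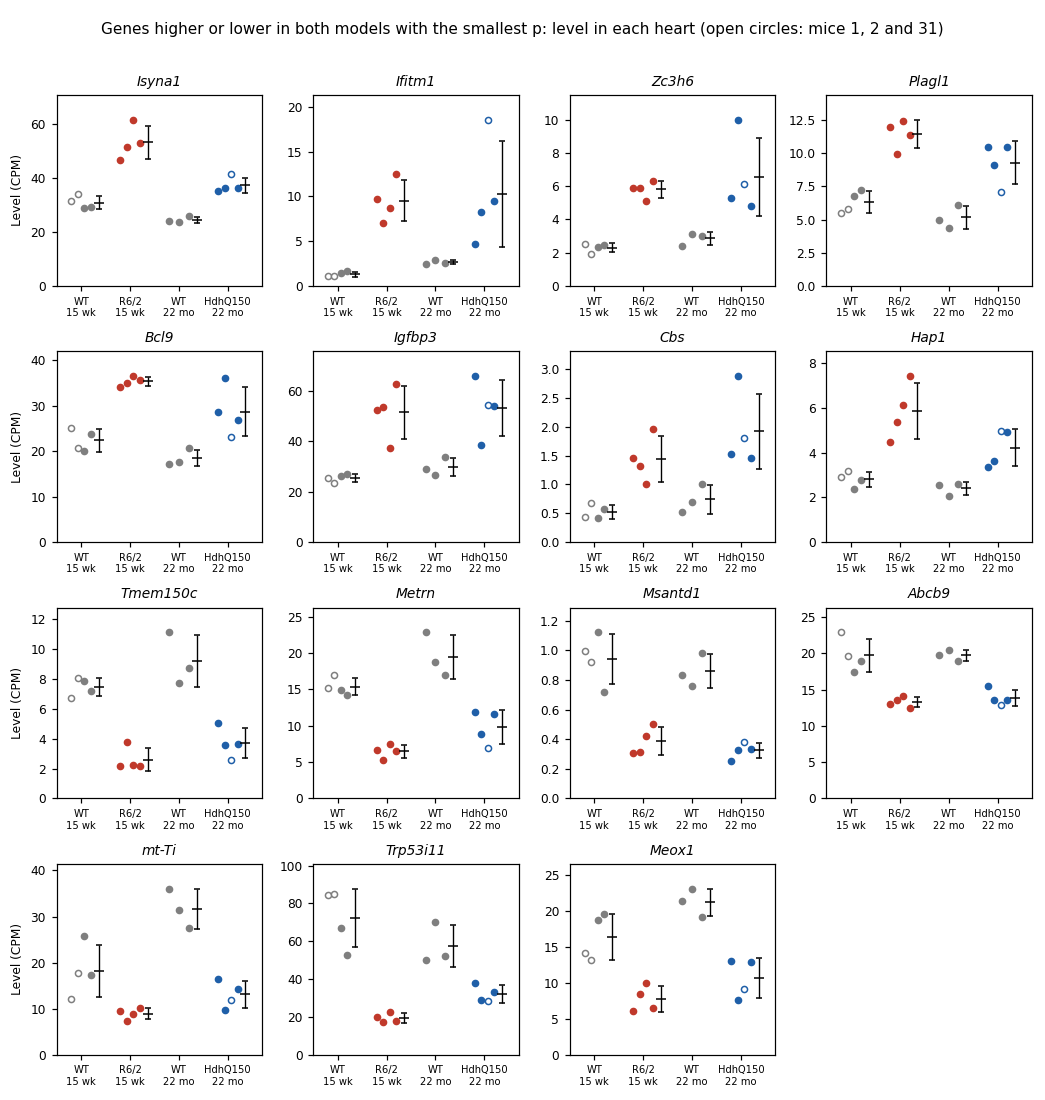
Level in CPM (vertical axes, from 0) of the 8 genes higher in both models and of 7 of the 8 genes lower in both, in each heart of the 4 groups, with bars for the mean ± SD. Open circles are mice 1, 2 and 31. HdhQ150 mouse 31 has the highest value of its group for Isyna1, Ifitm1 (18.6 CPM), Hap1 and Msantd1 and the lowest for Tmem150c, and lies between the others for Zc3h6.

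Tmem150c, Metrn, Msantd1, Abcb9, mt-Ti, Trp53i11 and Meox1 were among the 8 lower genes. Tmem150c, a multi-pass membrane protein gene, was at 6.74, 8.06, 7.87 and 7.18 CPM in WT and 2.21, 3.75, 2.23 and 2.17 CPM in R6/2 hearts. At the later age it was at 11.1, 7.75 and 8.78 CPM in WT and 5.03, 3.56, 2.61 and 3.62 CPM in HdhQ150 hearts. It fell by 1.53 ± 0.22 in R6/2 and by 1.31 ± 0.23 in HdhQ150 hearts on the log2 scale (adjusted p = 0.00374 and 0.0961), with no overlap of the groups. Metrn encodes meteorin, a secreted factor first described in neural cells. Its log2 fold changes were -1.24 ± 0.17 and -0.99 ± 0.18 (adjusted p = 0.00288 and 0.0961), from 15.3 ± 1.17 (SD, n = 4) to 6.49 ± 0.912 CPM (n = 4) and from 19.5 ± 3.02 (n = 3) to 9.84 ± 2.37 CPM (n = 4).

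Msantd1, a gene with a Myb/SANT-like domain, is the next protein-coding gene after Htt on chromosome 5 in RefSeq's annotation. It was scarce, at 0.998, 0.920, 1.12 and 0.721 CPM in WT and 0.306, 0.313, 0.422 and 0.505 CPM in R6/2 hearts. In the older hearts it was at 0.836, 0.758 and 0.982 CPM in WT and 0.255, 0.326, 0.381 and 0.334 CPM in HdhQ150 hearts. All 8 mutant hearts lay below all 7 WT hearts, and the log2 fold changes were -1.27 ± 0.24 and -1.40 ± 0.26 (adjusted p = 0.00992 and 0.0961). The gene before Htt, Grk4, had log2 fold changes of -0.06 and -0.03, and Rgs12, the gene after Msantd1, had -0.21 and -0.34, of which none was called. Overlap of Msantd1 reads with Htt was not tested.

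Trp53i11, a p53-inducible gene, fell by 1.89 ± 0.17 in R6/2 hearts and by 0.84 ± 0.17 in HdhQ150 hearts (adjusted p = 0.000233 and 0.0961), and the difference of 1.05 between the models did not pass (adjusted p = 0.128). Abcb9, a lysosomal peptide transporter gene, fell by a smaller amount, 0.57 ± 0.09 and 0.51 ± 0.10 (adjusted p = 0.00559 and 0.0961).

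The mitochondrial isoleucine tRNA mt-Ti fell by 1.03 ± 0.21 and 1.27 ± 0.22 (adjusted p = 0.0128 and 0.0961). Its neighbour mt-Tq was among the 23 genes called in each model, with -0.55 and -1.05, and since the strand handling of the counting is not given in the sources used here, reads of adjoining mitochondrial tRNAs may be shared between them. Meox1, a homeobox gene of mesoderm, was called by edgeR in R6/2 (-1.08 ± 0.21, adjusted p = 0.00988) and not in HdhQ150 hearts (-0.99 ± 0.22, adjusted p = 0.111), and by DESeq2 in both. The genes called in each model that the naming rule did not pick, and that are named here after their values were seen, were Cpz and Nxt2 among the higher and Atp2b3, BC048679, Cdc34, Dffa, Egln3, Enho, Hspa1l, mt-Tq and Paqr4 among the lower. In 12 libraries all 16 genes of the rule kept their direction, which that rule fixes, while their HdhQ150 adjusted p lay between 0.134 and 0.159 and none was called there.

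The difference between the 2 effects, tested directly, was called for 25 genes, 6 (0.0362%) with a higher and 19 (0.115%) with a lower effect in HdhQ150 than in R6/2 hearts, and 3 of the 19 were Y-linked. In 12 libraries 13 genes were called, and 2 of these, Ephx1 and 5031425E22Rik, were also among the 25. Each of the 25 kept its sign and at least a 1.3-fold difference in 12 libraries. Leaving out single hearts moved their number from 0 (without R6/2 mouse 7 or 8, WT mouse 26 or 27, or HdhQ150 mouse 32) to 2689 (without WT mouse 4), through 1238 without WT mouse 3, 671 without HdhQ150 mouse 29 and 64 without WT mouse 28. Without any of the remaining 6 hearts it was 2 to 5. The number was 0 with a term for the Y-linked or the thymocyte transcripts, 52 with one for the airway transcripts, 1 with the marks as a block and 2240 by DESeq2.

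Ephx1, microsomal epoxide hydrolase, a detoxifying enzyme, was at 31.8, 31.3, 32.4 and 41.9 CPM in WT and 72.1, 68.7, 68.9 and 76.3 CPM in R6/2 hearts. The 22-month levels were 50.2, 53.1 and 52.9 CPM in WT and 51.4, 49.4, 37.2 and 48.9 CPM in HdhQ150 hearts. It rose by 1.06 ± 0.11 in R6/2 hearts (adjusted p = 0.000666), had -0.16 ± 0.12 in HdhQ150 hearts (adjusted p = 0.47), and the interaction was -1.21 ± 0.16 (adjusted p = 0.0415) and -1.002 in 12 libraries (adjusted p = 0.0295). Cited2 encodes a transactivator that competes with HIF-1 for CBP/p300. Its levels were 21.1, 20.7, 18.4 and 26.1 CPM in WT and 55.9, 52.5, 66.0 and 55.0 CPM in R6/2 hearts, and 33.7, 33.7 and 33.2 CPM in WT and 43.8, 35.8, 42.5 and 35.8 CPM in HdhQ150 hearts. All HdhQ150 hearts were above their WT hearts too, by a smaller amount (0.24 ± 0.12, adjusted p = 0.288), and the interaction was -1.18 ± 0.16 (adjusted p = 0.0415).

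Ms4a4d, of the membrane-spanning 4A family, and the non-coding transcript 5031425E22Rik had interactions of -1.13 ± 0.18 and -0.83 ± 0.14 (adjusted p = 0.0943 each), with R6/2 effects of 1.26 and 0.90 and HdhQ150 effects of 0.13 and 0.07. Calr3, a calreticulin-family chaperone gene, had an interaction of -1.22 ± 0.21 (adjusted p = 0.0943). Gsta4, which conjugates glutathione to lipid aldehydes, was called in opposite directions. It was at 34.9, 37.5, 45.9 and 43.9 CPM in WT and 61.95, 49.9, 51.4 and 55.6 CPM in R6/2 hearts (log2 fold change 0.43 ± 0.12, adjusted p = 0.0315). At 22 months it was at 87.4, 82.0 and 65.4 CPM in WT and 55.8, 49.7, 47.4 and 55.1 CPM in HdhQ150 hearts (-0.59 ± 0.12, adjusted p = 0.0961). The mutant hearts of both ages lay in the same range, between 47.4 and 61.95 CPM, and it was the WT hearts that differed between the ages.

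Among the 6 genes called with a higher effect in HdhQ150 hearts, Arntl had the second largest interaction, after Igkv8-27. It was at 20.02, 22.3, 20.1 and 12.6 CPM in WT and 2.31, 4.15, 3.40 and 2.82 CPM in R6/2 hearts. At 22 months the levels were 8.13, 15.0 and 7.40 CPM in WT and 12.4, 11.7, 8.56 and 6.15 CPM in HdhQ150 hearts. It fell by 2.57 ± 0.30 in R6/2 hearts (adjusted p = 0.00151), the HdhQ150 effect was -0.07 ± 0.30 (adjusted p = 0.916), and the interaction was 2.49 ± 0.42 (adjusted p = 0.0943). The value in 12 libraries was 2.35 (adjusted p = 0.232). Dnmt3a, a de novo DNA methyltransferase, was at 50.2, 51.3, 47.0 and 41.5 CPM in WT and 28.5, 30.9, 32.5 and 31.1 CPM in R6/2 hearts. The older hearts were at 26.7, 27.1 and 30.9 CPM in WT and 29.3, 27.4, 26.9 and 32.1 CPM in HdhQ150 hearts. Here the 15-week WT hearts alone were high, and the interaction was 0.66 ± 0.13 (adjusted p = 0.0972).

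Mapk6 (ERK3, an atypical MAP kinase) and the transcriptional corepressor Bcor had interactions of 0.81 ± 0.14 and 0.88 ± 0.17 (adjusted p = 0.0943 each). Eif4ebp2, a repressor of cap-dependent translation, was at 26.6 ± 4.00 (SD, n = 4) in WT and 16.8 ± 1.47 CPM (n = 4) in R6/2 hearts, and at 10.2 ± 3.26 (n = 3) in WT and 18.3 ± 4.09 CPM (n = 4) in HdhQ150 hearts, with an interaction of 1.51 ± 0.29 (adjusted p = 0.0943). Its HdhQ150 hearts lay above all 3 WT hearts and its R6/2 hearts below all 4 WT hearts. The immunoglobulin segment Igkv8-27 was the sixth. It was at 4.89, 1.28, 29.8 and 12.7 CPM in HdhQ150 hearts and at 0.00 to 1.47 CPM in the other 11, and its highest value was in mouse 31, in which the B cell and plasma cell markers also had their highest sum. The part of those cells in its interaction was not tested. The 10 interaction genes that are neither Y-linked nor picked by the rule all had the higher effect in R6/2 hearts. Among them were Adh1, Ankrd63, Car4, Cxcl14, Fabp4, Papss2, Serpine2, Tesc and Tmem38b, which are named after their values were seen.

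**Figure D3:**
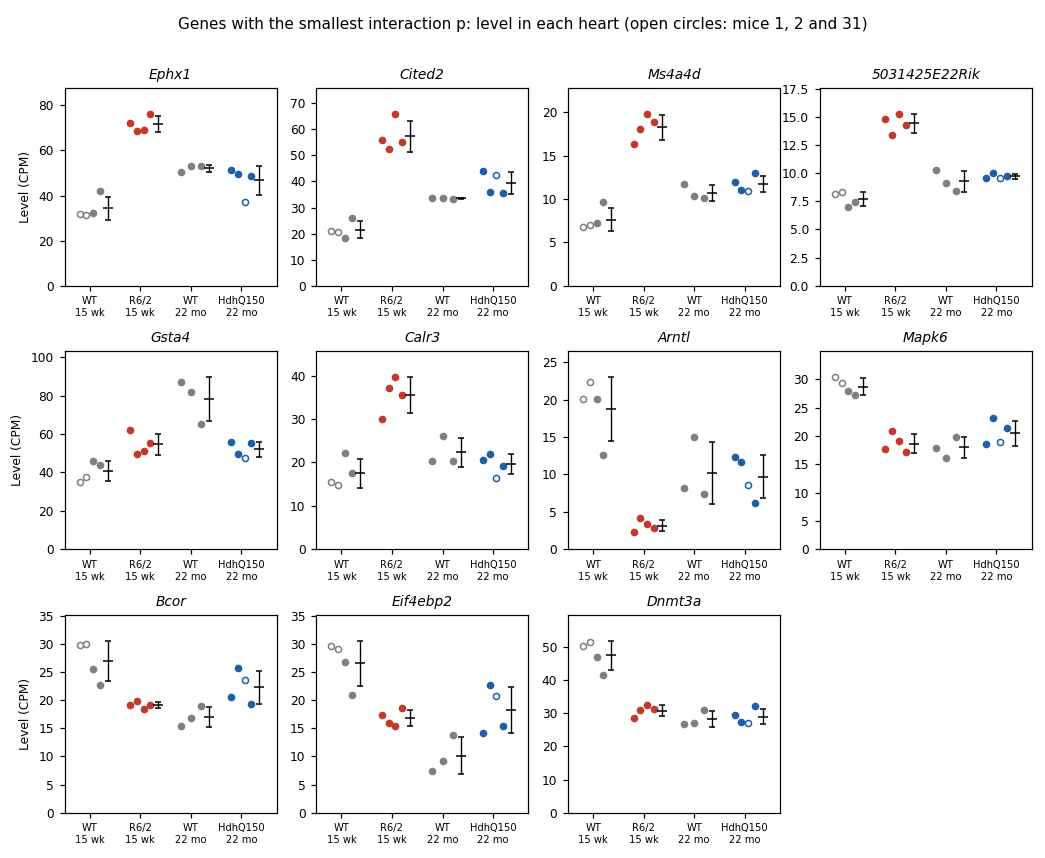
Level in CPM (vertical axes, from 0) of 11 of the 12 named genes with the smallest interaction p, in each heart of the 4 groups, with bars for the mean ± SD and open circles for mice 1, 2 and 31. Igkv8-27 is left out because most hearts are near 0 CPM. For Ephx1 the R6/2 hearts (68.7 to 76.3 CPM) lie above all other hearts, and for Arntl (2.31 to 4.15 CPM) below them.

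Gene lists are described next, each against the share of all genes tested that met the same rule. In R6/2 hearts that share was 8.95% higher and 8.64% lower by edgeR (5.11 and 5.02% in 12 libraries), 13.7 and 15.8% at an unadjusted p under 0.05, and 9.97 and 10.1% by DESeq2. In HdhQ150 hearts it was 0.0725% higher and 0.272% lower by edgeR, 9.18 and 10.5% at an unadjusted p under 0.05, and 3.71 and 4.47% by DESeq2. At that p with a 1.3-fold change in each model, 1.72% were higher in both and 0.948% lower in both. For the interaction it was 14.3 and 9.17% at that p, and 8.11 and 5.41% by DESeq2.

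Most genes of the circadian clock were called in R6/2 hearts. Of 6 tested genes that peak with Arntl, 5 fell in R6/2 hearts (among them Arntl, Npas2, Clock and Nfil3), and of 13 that peak with Dbp, 12 rose, all but Nr1d1 (4 and 9 in 12 libraries). In HdhQ150 hearts edgeR called 0 of these 19 genes, and 1, Per1, was higher at an unadjusted p under 0.05 and by DESeq2. Per1, a repressor of ARNTL and CLOCK, was at 34.6, 42.2, 38.8 and 57.3 CPM in WT and 80.8, 122, 123 and 142 CPM in R6/2 hearts (log2 fold change 1.44 ± 0.34, adjusted p = 0.0205). In HdhQ150 hearts it was at 53.2, 137, 44.5 and 61.4 CPM, above the WT values of 21.0, 43.6 and 41.4 CPM (1.07 ± 0.37, adjusted p = 0.173). Tef, a PAR bZIP factor, was at 91.8, 65.5, 94.1 and 102 CPM in WT and 226, 179, 168 and 216 CPM in R6/2 hearts, which did not overlap, and at 120, 114 and 133 CPM in WT and 104, 174, 108 and 138 CPM in HdhQ150 hearts, which did. Its log2 fold changes were 1.16 ± 0.18 (adjusted p = 0.00379) and 0.10 ± 0.19 (adjusted p = 0.792).

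The list medians were -1.05 in R6/2 and -0.05 in HdhQ150 hearts for genes that peak with Arntl, and 1.01 and 0.10 for those that peak with Dbp, beside -0.03 and 0.04 over all genes tested. In 12 libraries they were -0.91 and -0.01, and 1.02 and 0.19. In the interaction edgeR called Arntl alone of these genes, and the adjusted p of Tef, Hlf and Bhlhe41 was 0.128 each and of Npas2 0.135. At an unadjusted p under 0.05 the interaction was higher for 3 of the 6 and lower for 11 of the 13 genes, of which DESeq2 called 3 and 8. The hour at which the hearts were taken is not given in the sources used here, and its part in these values was not tested.

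Heat shock proteins and their cochaperones lay below WT in both models, to a lesser extent once Y-linked or airway transcripts were in the fit. Of 27 tested genes 8 fell in R6/2 hearts (Hspa1a, Hspa1b, Hsp90aa1, Hspa8, Dnaja1, Dnajb1, Chordc1 and Fkbp4) and 0 in HdhQ150 hearts by edgeR (5 lower at an unadjusted p under 0.05 and 3 by DESeq2), 26 had the same sign in both, and the medians were -0.48 and -0.46 (-0.62 and -0.30 in 12 libraries, where 12 fell in R6/2 hearts). With the airway term the R6/2 median was -0.21 and 7 of 27 genes lay above 0. With the Y-linked term the HdhQ150 median was -0.22, with 11 of 27 above 0, and -0.11 with 13 above 0 in 12 libraries. Those medians rest almost wholly on WT mouse 28 as the control. Hspa1a, an inducible HSP70, was at 12.8, 16.8, 49.4 and 10.6 CPM in WT and 5.70, 4.61, 5.03 and 5.75 CPM in R6/2 hearts. Levels at 22 months were 5.57, 5.78 and 4.99 CPM in WT and 3.06, 3.07, 2.48 and 5.65 CPM in HdhQ150 hearts. The R6/2 hearts lay below every WT heart of their age (-2.08 ± 0.42, adjusted p = 0.0119), while HdhQ150 mouse 32 was among the WT values (-0.61 ± 0.44, adjusted p = 0.442). Fkbp4, an HSP90 cochaperone, had -0.70 ± 0.17 (adjusted p = 0.0212) and -0.58 ± 0.18 (adjusted p = 0.153).

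Interferon-responsive genes lay above WT in HdhQ150 hearts and around WT in R6/2 hearts. In R6/2 hearts edgeR called 0 of 47 (1 higher and 1 lower at an unadjusted p under 0.05, and as many by DESeq2) and the median was -0.04, whereas in HdhQ150 hearts 46 of 47 had values above 0, the median was 0.74 (0.59 in 12 libraries), and 2 genes rose, Ifit2 (0.84, adjusted p = 0.0961) and Lgals3bp (0.90, adjusted p = 0.0961), both named after their values were seen. In 12 libraries neither was called. In HdhQ150 hearts 27 of the 47 genes were higher at an unadjusted p under 0.05 and 20 by DESeq2, and the interaction had 16 higher at that p with 0 called by edgeR and 12 by DESeq2. Stat2, a transcription factor of the type I interferon pathway, was at 27.6, 35.1, 26.4 and 29.0 CPM in WT and 20.3, 27.9, 24.3 and 24.6 CPM in R6/2 hearts. At the later age it was at 16.2, 12.3 and 16.3 CPM in WT and 17.96, 25.5, 23.7 and 23.4 CPM in HdhQ150 hearts. HdhQ150 hearts lay above their WT hearts, yet below all 15-week WT hearts, and the interaction was 0.88 ± 0.20 (adjusted p = 0.128). Irf7 was the only list member at an unadjusted p under 0.05 in both models, with 0.63 ± 0.26 (adjusted p = 0.119) and 1.13 ± 0.29 (adjusted p = 0.14).

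Oas3, an antiviral oligoadenylate synthetase, was at 1.16, 3.80, 0.392 and 0.621 CPM in WT and 0.349, 0.271, 0.669 and 0.968 CPM in R6/2 hearts. In the older hearts it was at 0.346, 0.0561 and 0.196 CPM in WT and 0.441, 1.14, 8.22 and 0.787 CPM in HdhQ150 hearts. Its highest values were those of mouse 31 and WT mouse 2, libraries with thymocyte transcripts, and its HdhQ150 log2 fold change was 3.72 ± 1.17 in 15 and 1.98 in 12 libraries (adjusted p = 0.153 and 0.19). All 28 genes of antigen presentation and complement had values above 0 in HdhQ150 hearts in both sets of libraries (median 0.88, and 0.62 in 12 libraries), with 0 called by edgeR, 14 higher at an unadjusted p under 0.05 and 8 by DESeq2. In R6/2 hearts the median was 0.09, with 2 called as higher (3 in 12 libraries), among them Serping1, an inhibitor of complement. Tap1, which pumps peptides into the endoplasmic reticulum, was at 19.1, 28.9, 68.8 and 30.8 CPM in HdhQ150 hearts and 14.5, 11.1 and 18.3 CPM in WT hearts, again highest in mouse 31 (1.34 ± 0.43, adjusted p = 0.156). The 8 macrophage markers summed to 242.9 to 468.4 CPM in HdhQ150 and 218.5 to 264.7 CPM in WT hearts at 22 months, with the highest sum in mouse 31. The part of such cells in these values was not tested.

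**Figure D4:**
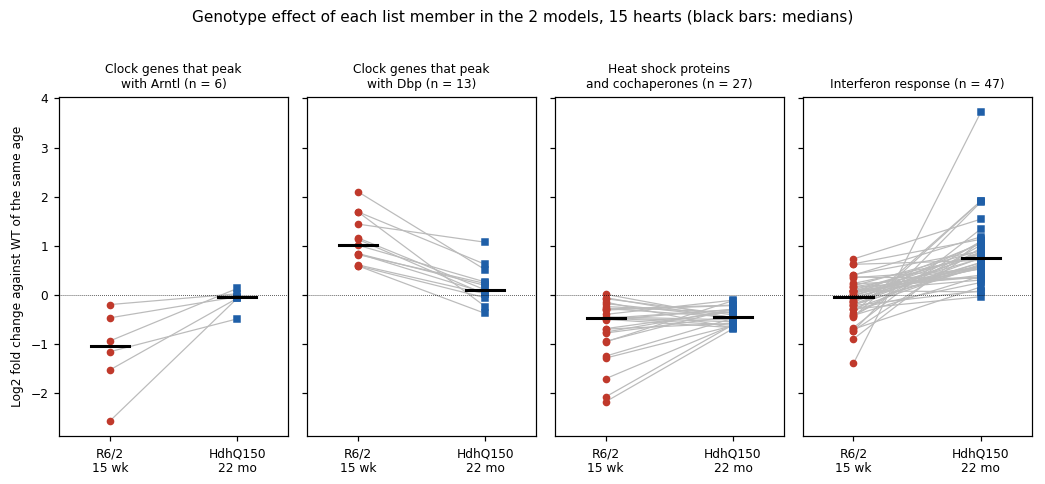
Log2 fold change against WT of the same age (vertical axis) of each tested member of 4 gene lists, in R6/2 hearts (red) and HdhQ150 hearts (blue) of the 15-heart set, with lines joining the same gene and black bars at the medians. Medians of the clock genes are -1.05 and 1.01 in R6/2 and -0.05 and 0.10 in HdhQ150 hearts, where single genes reach from -0.49 (Nfil3) to 1.07 (Per1). Heat shock genes are below 0 in both, apart from Hspb7 in R6/2 hearts (0.01), and interferon-responsive genes are above 0 in HdhQ150 hearts (median 0.74).

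Genes of oxidative phosphorylation lay below WT in HdhQ150 hearts, though none passed. By edgeR 0 of 78 were called in either model, while 63 were lower in HdhQ150 hearts at an unadjusted p under 0.05 and 46 by DESeq2, against 0 and 0 in R6/2 hearts. None, or 0 of 78, had a value above 0 in HdhQ150 hearts (median -0.46, and -0.34 in 12 libraries), against 43 of 78 in R6/2 hearts (median 0.02). In 12 libraries 7 of 78 lay above 0 in R6/2 hearts (median -0.19), so that most of that difference was gone. With the Y-linked term the HdhQ150 median was -0.31, and -0.19 with it in 12 libraries. The cardiomyocyte marker sum was 64240 to 68040 CPM in WT hearts at 22 months and 59540, 69410, 36280 and 59400 CPM in HdhQ150 mice 29 to 32, lowest in mouse 31, and its part in these values was not tested. Ndufc2, a complex I subunit gene, had log2 fold changes of 0.21 ± 0.12 (adjusted p = 0.256) and -0.46 ± 0.13 (adjusted p = 0.145). Mitochondrially encoded counts were 24.91 to 32.09% of the HdhQ150 libraries and 33.03 to 36.39% of their WT libraries, with the lowest share in mouse 31. Fatty acid and ketone genes had medians of 0.29 in R6/2 and -0.29 in HdhQ150 hearts, which were 0.07 and -0.18 in 12 libraries. Of 29 genes 8 rose and 2 fell in R6/2 hearts (5 and 2 in 12 libraries), with 0 called by edgeR in HdhQ150 hearts (1 higher and 7 lower at an unadjusted p under 0.05, and 1 and 5 by DESeq2). Cpt1a, which loads fatty acids for mitochondrial import, was the higher gene of the list at an unadjusted p under 0.05 in both, with 0.95 ± 0.16 (adjusted p = 0.00699) and 0.52 ± 0.18 (adjusted p = 0.171), and Bdh1, a ketone body dehydrogenase, the lower one, with -0.82 ± 0.28 and -0.78 ± 0.30 (adjusted p = 0.0733 and 0.201).

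Of 28 genes of glycolysis and glucose uptake 4 rose and 3 fell in R6/2 hearts (2 and 6 in 12 libraries). The R6/2 counts in 15 libraries were not far above the shares over all genes. In HdhQ150 hearts 2 fell by edgeR, among them Egln3 (0 in 12 libraries). There 2 were higher and 8 lower at an unadjusted p under 0.05, and 7 lower by DESeq2. Egln3 encodes a HIF prolyl hydroxylase. It was at 71.5, 87.3, 134 and 90.8 CPM in WT and 55.0, 54.5, 64.3 and 36.9 CPM in R6/2 hearts. The 22-month levels were 73.3, 89.6 and 107 CPM in WT and 46.8, 38.7, 29.6 and 43.9 CPM in HdhQ150 hearts, with no overlap at either age (-0.87 ± 0.21 and -1.18 ± 0.23, adjusted p = 0.0243 and 0.0961). The glucose transporter Slc2a1 had 0.61 ± 0.21 and 0.56 ± 0.23 (adjusted p = 0.0727 and 0.216). Among 20 glycogen genes, edgeR called 2 higher and 2 lower in R6/2 hearts, close to the shares over all genes (1 and 3 in 12 libraries). In HdhQ150 hearts it called 0 (3 lower at an unadjusted p under 0.05 and 2 by DESeq2). Ppp1r3c, which targets protein phosphatase 1 to glycogen, had -1.09 ± 0.27 and -0.91 ± 0.28 (adjusted p = 0.0226 and 0.15).

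Of 40 genes of apelin signalling and endothelial growth 9 fell and 5 rose in R6/2 hearts (11 and 1 in 12 libraries). In HdhQ150 hearts 1 (Trp53i11) fell by edgeR (0 in 12 libraries), with 12 lower at an unadjusted p under 0.05 and 7 by DESeq2. At that p with the 1.3-fold limit 6 of the 40 were lower in both, against 0.948% of all genes. Apln, the ligand of the apelin receptor, was at 12.5, 12.5, 22.5 and 18.9 CPM in WT and 1.97, 5.55, 3.17 and 3.66 CPM in R6/2 hearts. At 22 months the levels were 15.8, 15.2 and 12.9 CPM in WT and 8.77, 4.48, 2.88 and 8.04 CPM in HdhQ150 hearts. The groups did not overlap at either age (-2.21 ± 0.37, adjusted p = 0.00574, and -1.28 ± 0.38, adjusted p = 0.147). Its receptor Aplnr had -1.81 (adjusted p = 0.0495) and -1.11 (adjusted p = 0.297), and was not among the 6 genes lower in both. Sums of the 8 endothelial markers were 842.9 to 1046 CPM in R6/2 and 692.4 to 1004 CPM in WT hearts at 15 weeks, and 494.9 to 796.3 CPM in HdhQ150 and 814.8 to 849.3 CPM in WT hearts at 22 months.

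Extracellular matrix genes went both ways, with 13 of 67 higher and 8 lower in R6/2 hearts (9 and 9 in 12 libraries), 0 called by edgeR in HdhQ150 hearts (4 higher and 4 lower at an unadjusted p under 0.05, and 2 and 2 by DESeq2), and 4 higher and 3 lower in both at an unadjusted p under 0.05. The HdhQ150 counts were below the shares over all genes. Ccn2, connective tissue growth factor, had 1.003 ± 0.25 and 0.97 ± 0.28 (adjusted p = 0.0253 and 0.145), and Serpinh1, the collagen chaperone HSP47, had -1.02 ± 0.22 and -0.81 ± 0.23 (adjusted p = 0.0144 and 0.145). The inhibitor of metalloproteinases Timp4 had 1.35 ± 0.19 (adjusted p = 0.00344) and 0.05 ± 0.21 (adjusted p = 0.908). The 7 fibroblast markers summed to 3213 to 4087 CPM in R6/2 and 1818 to 2452 CPM in WT hearts at 15 weeks, which did not overlap, and to 1291 to 2692 CPM in HdhQ150 and 1879 to 2168 CPM in WT hearts at 22 months. Single markers went both ways in R6/2 hearts, where 4 were called higher and 1, Col3a1, lower (-1.15, adjusted p = 0.0299). In 12 libraries 3 were higher and 1 lower. The part of such cells in the matrix values was not tested.

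FoxO and glucocorticoid responsive genes lay above WT in both models (medians 0.55 and 0.32, and 0.44 and 0.21 in 12 libraries), with 12 of 33 higher and 1 lower (Irs1) in R6/2 hearts (5 and 1 in 12 libraries), 0 called by edgeR in HdhQ150 hearts (6 higher at an unadjusted p under 0.05 and 5 by DESeq2), and Klf15, Tsc22d3, Per1 and Igfbp3 higher in both at an unadjusted p under 0.05. Tsc22d3 (GILZ), a glucocorticoid-induced leucine zipper, had 1.08 ± 0.21 (adjusted p = 0.0104) and 0.60 ± 0.23 (adjusted p = 0.195). Of 45 ion channel and calcium handling genes 4 rose and 4 fell in R6/2 hearts, close to the shares over all genes (3 and 8 in 12 libraries, with medians of 0.09 and -0.23), and edgeR called 0 in HdhQ150 hearts (2 higher and 4 lower at an unadjusted p under 0.05, and 0 and 4 by DESeq2). Hcn2, a pacemaker channel gene, was at 15.3, 15.2, 25.7 and 18.9 CPM in WT and 4.43, 4.50, 5.23 and 4.91 CPM in R6/2 hearts. The older hearts were at 18.1, 16.3 and 12.3 CPM in WT and 9.33, 10.9, 4.04 and 7.63 CPM in HdhQ150 hearts. It fell in R6/2 hearts (-1.98 ± 0.26, adjusted p = 0.00276), and HdhQ150 hearts lay below WT without overlap (-0.97 ± 0.27, adjusted p = 0.145). Its interaction was 1.01 (adjusted p = 0.153) in 15 and 1.48 (adjusted p = 0.099) in 12 libraries. The G protein subunit gene Gnb3 had -1.82 ± 0.31 and -0.25 ± 0.32 (adjusted p = 0.00658 and 0.677).

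Of 20 foetal and hypertrophic genes, 1 rose and 2 fell in R6/2 hearts (1 and 2 in 12 libraries). In HdhQ150 hearts edgeR called 0, while 2 were higher and 2 lower at an unadjusted p under 0.05 and 1 and 1 by DESeq2. The counts in 15 libraries were close to the shares over all genes. Acta1, skeletal alpha-actin, was at 118, 59.0, 164 and 182 CPM in WT and 4.56, 7.75, 13.9 and 19.3 CPM in R6/2 hearts. Levels at 22 months were 349, 651 and 124 CPM in WT and 34.2, 97.9, 10.1 and 22.4 CPM in HdhQ150 hearts. No groups overlapped, and the log2 fold changes were -3.52 ± 0.73 (adjusted p = 0.013) and -3.19 ± 0.74 (adjusted p = 0.119). The 12 skeletal muscle markers, Acta1 among them, summed to 1069 to 1602 CPM in R6/2 and 1404 to 2199 CPM in WT hearts at 15 weeks and to 1000 to 1888 CPM in HdhQ150 and 2257 to 2819 CPM in WT hearts at 22 months, and their part in the Acta1 value was not tested. Tnni1, slow skeletal troponin I, an isoform of the foetal heart, had 1.10 ± 0.28 (adjusted p = 0.0248) and 1.19 ± 0.31 (adjusted p = 0.142). Among 45 sarcomere genes 2 rose and 1 fell in R6/2 hearts, the latter being Acta1, fewer than the shares over all genes, while in 12 libraries 0 rose and 7 fell (medians -0.01 and -0.28). Among 16 tested genes of neurotrophins and adrenergic innervation 1 rose and 0 fell in R6/2 hearts, fewer than the shares over all genes. That gene was the noradrenaline transporter Slc6a2 (2.81), and the 12 libraries also had 1 gene higher and 0 lower. In HdhQ150 hearts edgeR called 0 genes of both lists, with 1 higher and 7 lower sarcomere genes at an unadjusted p under 0.05 (0 and 4 by DESeq2) and 1 higher and 1 lower innervation gene (0 and 0 by DESeq2).

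**Figure D5:**
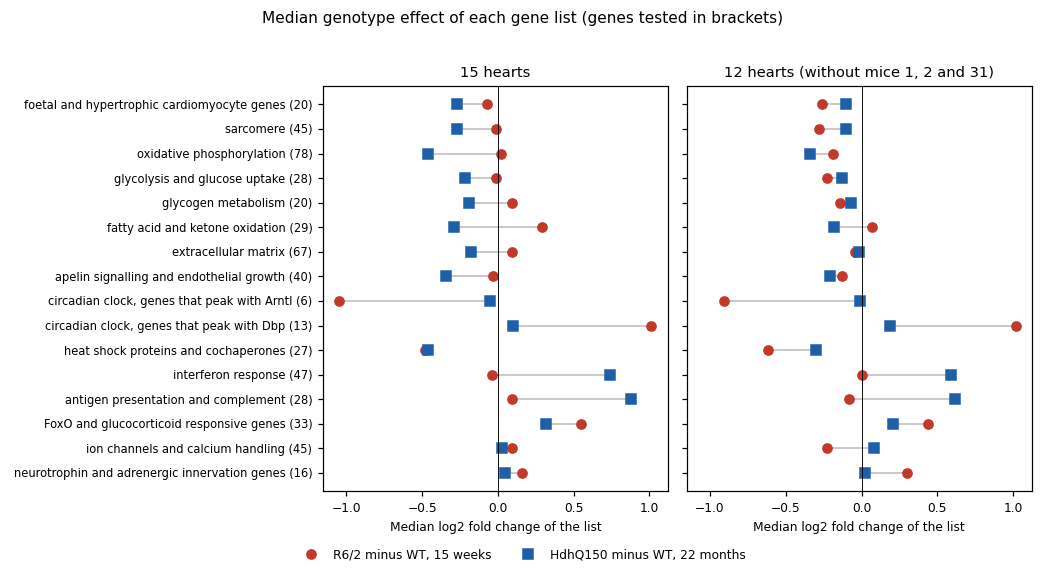
Median log2 fold change of the 16 gene lists (horizontal axis; number of genes tested in brackets) in R6/2 (red circles) and HdhQ150 hearts (blue squares), in 15 hearts (left) and 12 hearts (right). Both clock lists (-1.05 and 1.01 against -0.05 and 0.10), the interferon list (-0.04 against 0.74) and the antigen presentation list (0.09 against 0.88) are the furthest apart, and the heat shock list coincides on the left (-0.48 and -0.46).

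Of the 12 genes that the study assayed or named, 11 could be tested, and in R6/2 hearts edgeR called S100a4 alone, while DESeq2 called Foxo3 as well (adjusted p = 0.0931). This calcium-binding gene of fibroblasts was at 4.59, 4.66, 3.64 and 4.72 CPM in WT and 9.65, 11.0, 10.6 and 10.6 CPM in R6/2 hearts (1.25 ± 0.34, adjusted p = 0.0323), and at 7.24, 4.66 and 5.64 CPM in WT and 8.07, 2.47, 12.6 and 8.90 CPM in HdhQ150 hearts (0.46 ± 0.36, adjusted p = 0.485). The natriuretic peptide gene Nppa had 0.00 ± 0.20 and 0.02 ± 0.21 (adjusted p = 0.997 and 0.97), its group means lying between 1523 and 2205 CPM. Nppb, the other natriuretic peptide gene, was at 119, 62.4, 184 and 115 CPM in WT and 48.6, 126, 17.7 and 34.0 CPM in R6/2 hearts (-1.09 ± 0.52, adjusted p = 0.185). In HdhQ150 hearts its log2 fold change was 0.07 ± 0.56 (adjusted p = 0.96). The myosin heavy chain genes had -0.37 ± 0.26 and -0.13 ± 0.28 (Myh6, adjusted p = 0.354 and 0.824) and -0.06 ± 0.43 and 0.42 ± 0.47 (Myh7, adjusted p = 0.941 and 0.63). Myh6 was called in R6/2 hearts in 12 libraries (-0.69, adjusted p = 0.0326).

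The LIM domain genes Fhl1 and Fhl2 had log2 fold changes of 0.45 and 0.10 in R6/2 and -0.34 and -0.45 in HdhQ150 hearts, and Fhl1 reached 557 CPM in 1 WT heart (mouse 27) and 525 CPM in 1 HdhQ150 heart (mouse 30), with at most 184 CPM in the other 13. Vgll4, a cofactor of TEAD factors, had -0.25 and 0.23, Bdnf, a neurotrophin, -0.20 and 0.15, the gap junction gene Gja1 -0.54 and -0.19 and the transcription factor Foxo3 0.55 and 0.36, with adjusted p between 0.14 and 0.823. Of these Gja1 was called in R6/2 hearts in 12 libraries (-0.80, adjusted p = 0.0615). Th, tyrosine hydroxylase, was below the minimum for testing, at 0.0560 to 0.250 CPM.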

How the data were processed

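Whole hearts were used for column-based extraction of total RNA, which was sequenced as paired 50-base reads on an Illumina HiSeq instrument, 4 libraries to a lane. The authors aligned reads with Omicsoft OSA to mouse genome B37 and deposited estimated counts per gene, of which 70.9% of non-zero values were whole (tolerance 1e-09), the rest being rounded here. The annotation and strand handling are not given in the sources used here. Columns were tied to groups by the model and age in their headings, and 0 per-sample columns had no group. The deposited FPKM and sample tables were not used. Genes without a symbol (4723 of 37620) held 0.773% of the counts.

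One edgeR 4.0.16 quasi-likelihood fit (R 4.3.3, TMM, filterByExpr) of the 15 libraries in 4 groups gave both genotype effects, their difference and their mean. Calls needed a Benjamini-Hochberg adjusted p under 0.1 and at least a 1.3-fold change. CPM are TMM-scaled. Totals ranged from 38217660 to 62127770 and replicates differed beyond sampling noise. DESeq2 1.42.0, RLE scaling, no filter, other thresholds, Y-linked and airway terms, separate fits and leaving out hearts were also tried. The thymocyte term, the block on marks and pairs of alternatives were chosen after seeing the data. Python 3.11.15 (pandas 2.3.3, numpy 2.4.6, matplotlib 3.10.9) made tables and plots. The fits were tested on simulated data.

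The members and lists were chosen with earlier results of these data known. Named genes were the 12 that the study assayed or named, and the 8 higher and 8 lower with the smallest larger p of both models. They also held the 6 most positive and 6 most negative interactions by p, and from each list up to 3 by each measure at an unadjusted p under 0.05. Sex-linked genes and markers of other cell types were left out of the first and second rankings, which required the same sign and fold in 12 libraries. Promoters came from RefSeq (GRCm38.p6), matched by symbol. Some genes are not reported here.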

Additional observations from a re-analysis of the deposited data

Results flagged for a closer look

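Values of 1 heart stood apart from the others of its group in 20 of 288 sets of 4 hearts, over 96 named genes. A heart was marked where its gap to the nearest other heart exceeded the 95% limit of Dixon for the range of the group, which chance gives in about 1 in 20 sets. The 3 WT hearts at 22 months were too few to be examined. Mouse 31 held 6 of these values and mice 30 and 3 held 3 each.

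In HdhQ150 mouse 31 the marked levels were Fhl2 at 635.1 CPM, Nfatc1 at 53.78 CPM, Uqcr10 at 165.8 CPM, Pfkl at 106.5 CPM, Chordc1 at 28.73 CPM and Oas3 at 8.217 CPM. In HdhQ150 mouse 30 they were Nppa at 2883 CPM, Fhl1 at 525.3 CPM and Ccn2 at 238.7 CPM. WT mouse 3 had S100a4 at 3.64 CPM, Bdh1 at 152.3 CPM and Hspa1a at 49.44 CPM, and WT mouse 4 had Ephx1 at 41.87 CPM and Ms4a4d at 9.616 CPM. Among R6/2 hearts, mouse 5 had Hlf at 50.84 CPM, mouse 6 Tmem150c at 3.753 CPM and Th at 0.1052 CPM, mouse 7 Thbs2 at 37.1 CPM, and mouse 8 Cpt1a at 79.61 CPM and Sox17 at 24.15 CPM.

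The 12 named genes of the interaction ranking were flagged as differing in genotype effect between the models. They had been chosen for a small interaction p, so the flag follows from the choice. The difference, HdhQ150 minus R6/2 on the log2 scale, was 2.49 for Arntl, 0.81 for Mapk6, 0.88 for Bcor, 1.51 for Eif4ebp2, 10.55 for Igkv8-27 and 0.66 for Dnmt3a. It was -1.21 for Ephx1, -1.18 for Cited2, -1.13 for Ms4a4d, -0.83 for 5031425E22Rik, -1.02 for Gsta4 and -1.22 for Calr3. Age, cross and mutation cannot be told apart in it, and Y-linked transcripts were present in R6/2 hearts and near 0 in HdhQ150 hearts. Of these genes Ephx1 and 5031425E22Rik were also called in 12 libraries. Over all genes, interaction calls were 0 with the Y-linked term, 0 with the thymocyte term and 1 with the marks as a block.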

How the results depend on the processing

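No paired analysis was possible because the columns carry no replicate number of the labels, so the planned fit with a replicate block was not run. A fit with the mark of the headings as a block was added after seeing the data. It gave 8 R6/2 calls, 0 HdhQ150 calls, 1 interaction call, 111 calls on the mean effect, 136 same-way and 33 opposite genes, with 4 residual degrees of freedom, and turned the signs of Nppa (-0.07), Nppb (-0.65) and Bdnf (-0.04) in HdhQ150 hearts, Myh7 in R6/2 hearts (0.01) and the Tnni1 interaction (-0.86). The cause of the changes below was not tested.

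R6/2 calls (2914) were 1668 in 12 libraries, 213 there with the airway term, 1467 there with the Y-linked term and 1659 at an adjusted p under 0.05. HdhQ150 calls (57) were 0 in 12 libraries, 0 with the Y-linked term, 0 with the airway term, 0 in 12 libraries with the Y-linked term, 0 at an adjusted p under 0.05, 0 in a separate fit, 93 by RLE, 3 with no filter, 1356 by DESeq2, 173 with the thymocyte term, and 13 and 715 in 12 libraries with the airway term and by DESeq2. Interaction calls (25) were 13 in 12 libraries, 8 with no filter, 2240 by DESeq2, 0 with the Y-linked term, 52 with the airway term, 0 with the thymocyte term, 2 at an adjusted p under 0.05, and 9, 3 and 303 in 12 libraries with the airway term, the Y-linked term and by DESeq2. Calls on the mean effect (1740) were 22 with the Y-linked, 688 with the airway and 2748 with the thymocyte term, 646 and 239 in 12 libraries with the airway and Y-linked terms, 981 at an adjusted p under 0.05 and 2826 with no fold limit. Joint same-way calls (0) were 27 by DESeq2 and 67 by it in 12 libraries. Same-way genes at an unadjusted p under 0.05 (442) were 94 with the Y-linked and 294 with the airway term, 128 in 12 libraries with the Y-linked term and 704 with no fold limit. Opposite genes (132) were 18 in 12 libraries, 228 by DESeq2, 11, 51 and 49 with the Y-linked, airway and thymocyte terms, and 9, 6 and 28 in 12 libraries with the airway and Y-linked terms and by DESeq2. The Spearman correlation (0.04) was 0.375 in 12 libraries, 0.367 with the thymocyte term, and 0.319, 0.375 and 0.376 in 12 libraries with the airway and Y-linked terms and by DESeq2.

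Leaving out single hearts gave 1488 to 3630 R6/2 calls, 0 to 490 HdhQ150 calls (490 without WT mouse 28), 0 to 2689 interaction calls (2689 without WT mouse 4), 744 to 1886 calls on the mean (744, 943 and 1154 without WT mouse 26, WT mouse 27 or R6/2 mouse 8), 0 to 0 joint calls, 241 to 491 same-way genes (241 without WT mouse 26, 287 without WT mouse 27), 22 to 243 opposite genes and correlations of -0.052 to 0.183. In those fits log2 values that changed sign ranged from -0.57 to 0.98 (Acta1 interaction), -0.14 to 0.27 (Bdnf, HdhQ150), -1.09 to 0.47 (Fhl1, HdhQ150), -0.06 to 0.27 (Fhl2, R6/2), 0.00 to 0.52 (Foxo3, HdhQ150), -0.29 to 0.04 (Myh6, HdhQ150), -0.06 to 0.63 (Myh7, HdhQ150), -0.30 to 0.32 (Myh7, R6/2), -0.13 to 0.14 (Nppa, HdhQ150), -0.10 to 0.15 (Nppa, R6/2), -0.34 to 0.29 (Nppb, HdhQ150) and -0.07 to 0.33 (Tnni1 interaction).

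Other sign changes were Nppa in R6/2 hearts (-0.25 in 12 libraries, -0.31 with the thymocyte term, and -0.08, -0.24 and -0.25 in 12 libraries with the airway and Y-linked terms and by DESeq2), Fhl2 in R6/2 hearts (-0.10, -0.27, -0.10 with the Y-linked term in 12 libraries and -0.11 by DESeq2 in 12 libraries), Vgll4 in R6/2 hearts (0.00 with the thymocyte term) and Myh7 in R6/2 hearts (0.20 with the airway term). In HdhQ150 hearts they were Nppb (-0.04 with the Y-linked term), Fhl1 (0.45, and 0.69 in 12 libraries), Vgll4 (-0.09 and -0.27 likewise), Myh6 (0.04 in 12 libraries, 0.01 with the airway and 0.04 with the thymocyte term, and 0.08, 0.05 and 0.04 in 12 libraries with the airway and Y-linked terms and by DESeq2) and Gja1 (0.05 in 12 libraries with the airway term). None of these had been called. Of the other values of named genes 2522 kept their direction and side of the threshold, 267 lost it and 151 gained it, and 1153 list medians stayed within the spread between hearts while 95 moved. Levels near 0.1 CPM (Th) limit what this depth resolves.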

Other observations

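Pairs of hearts that share a mark in the headings (L5, L6 or L7) join one mutant and one WT heart of the same age: R6/2 mouse 5 with WT mouse 3, HdhQ150 mouse 31 with WT mouse 26, and HdhQ150 mouse 29 with WT mouse 28. In each of these 3 pairs all 16 genes ranked as higher or lower in both models had the sign of their group difference. The 16 genes were chosen on these same hearts, so this agreement in sign is largely set by the choice. These are values of single pairs, chosen after the data were seen, and no test was made of them.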
